A study of Mus spretus with 8 samples.

Results

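The 9 genes described here encode carriers that move bile acids and other organic anions across the membrane of liver cells, and they were selected by name. Together they had 12 of the 42957 probes on the array (6 genes with 1 probe and 3 genes with 2), and 9 of the 22471 genes with a symbol. Liver RNA of 8 male Mus spretus mice was measured, 1 array per mouse. Mus spretus is a wild mouse species, kept here as the inbred SPRET/EiJ strain, so all 8 animals shared 1 genetic background. The DDE group held 4 mice, 7 weeks old at the start, that ate Harlan feed with p,p'-DDE dissolved in corn oil at 450 mg/kg for 30 days. The control group held 4 mice of the same age on Harlan feed with corn oil alone for the same time. The compound p,p'-DDE is the long-lived breakdown product of the insecticide DDT.

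Hepatocytes take up bile acids and other anions from portal blood on their sinusoidal face and secrete them into bile on the opposite face. Slc10a1 (NTCP) couples the uptake of conjugated bile acids to sodium, whereas the Slco carriers (OATPs) and Slc22a7 (OAT2) work without sodium. The products of Slc51a and Slc51b act only as a pair, and in the sinusoidal or basolateral membrane they let bile acids leave the cell along their gradient. In mouse liver Slco1a4 is a known target of the drug-sensing receptors PXR and CAR, and Slco1a1 is known for higher expression in males.

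All values are log2 signals as normalized by the authors, on a scale that ends at 16, and an error given with a mean is the SD over 4 mice. Each array's background was taken from its smell and pheromone receptor probes (Olfr and Vmn genes) as their 0.95 quantile, and it lay between 7.55 and 7.81. Between 40.2% and 46.9% of the probes were above it. Patches in which neighbouring spots deviated together, called stained here, covered from 0.521% of the spots (DDE 1) to 9.50% (control 4). In both groups the share rose with the replicate number. It was 0.521, 3.03, 4.43 and 7.59% in DDE 1 to 4. In control 1 to 4 it was 1.16, 4.25, 5.45 and 9.50%. All 8 hepatocyte markers were above background in every liver, with summed linear signals of 315677 to 385108 in DDE livers and 370141 to 391740 in control livers. Of these markers 6 (Alb, Serpina1c, Apoa2, Fgb, Ttr and Ass1) had values within 0.2 of the top of the scale in both groups, so the list identifies the tissue but says little about change. Of the other cell type lists, bile duct markers (6 measured, 0 above background in all 8 livers), endothelial markers (8), Kupffer cell markers (7), kidney markers (4) and intestine markers (5) had 0 genes past the threshold. In the stellate cell list 1 of 7 passed, Reln, with 7.62 ± 0.030 in DDE livers and 7.24 ± 0.11 in control livers, near the background level. In whole liver RNA, fewer cells of a type and less RNA per cell cannot be told apart.

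The comparison asks which of these transporters differed in the liver after dietary p,p'-DDE. Two-sided limma tests over all probes, adjusted by the Benjamini-Hochberg method with a threshold of 0.05, gave 2 member probes that rose, 2 that fell and 8 that did not pass. Over the whole array 2.34% of the probes rose and 0.661% fell. The groups did not overlap at 5 of the 12 member probes (2 higher and 3 lower in DDE livers), against 11.8% of all probes. The median change of the 12 probes was -0.48, and that of all 42957 probes was 0.01. Of the 12, 10 had a lower mean in DDE livers, but only 2 of these passed. Among the 10 were both Slc51a probes, which were at background in every DDE liver. The brighter Slco2b1 and Slc10a1 probes, also among them, changed direction in some other fits.

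**Figure D1:**
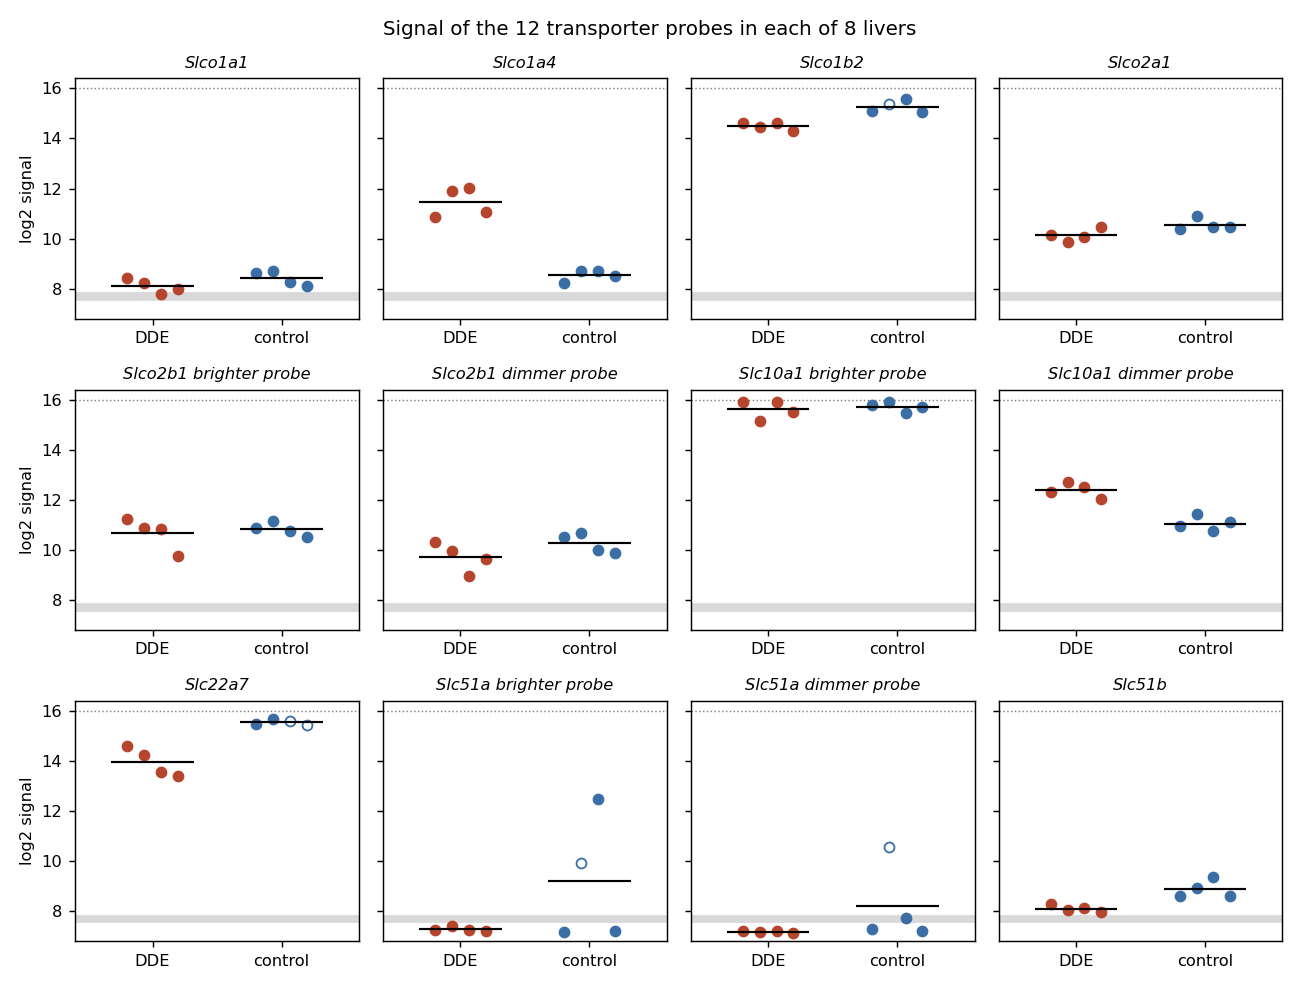
Log2 signal (vertical axis) of each of the 12 transporter probes in 4 DDE livers (red, left) and 4 control livers (blue, right), with bars at the group means. Open points are stained spots, the grey band spans the background levels of the arrays (7.55 to 7.81) and the dotted line marks the top of the scale at 16; Slco1a4 lies between 10.87 and 12.03 in DDE livers, against 8.21 to 8.70 in control livers.

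Among the Slco carriers, Slco1a4 (array feature 5664), which takes up a wide range of anions, steroid conjugates and cardiac glycosides, showed the largest rise of any member. Its signal was 10.87, 11.92, 12.03 and 11.05 in DDE livers 1 to 4, against 8.21, 8.69, 8.70 and 8.50 in control livers 1 to 4. Every DDE liver was at least 2 units above every control, and DDE 2 and DDE 3 were the highest. The mean was 11.47 ± 0.59 in DDE livers and 8.53 ± 0.23 in control livers, a change of 2.94 (SE 0.29, 95% interval 2.25 to 3.63, limma adjusted p = 0.00755) or 7.69-fold. It was the 37th largest rise among all probes. Leaving out any 1 of the 8 arrays kept the call, with adjusted p from 0.0118 to 0.0342. With the replicate number as a block the change was the same but missed the threshold (limma adjusted p = 0.0541).

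Slco1b2 (feature 18689), the mouse counterpart of the human OATP1B carriers for unconjugated bile acids, bilirubin conjugates and statins, moved the other way. It had 14.60, 14.45, 14.60 and 14.30 in DDE livers 1 to 4, against 15.09, 15.39, 15.58 and 15.05 in control livers 1 to 4. The groups did not overlap, and the DDE livers were close to each other. Slco1b2 fell by 0.79 on the log2 scale (SE 0.14, 95% interval -1.12 to -0.46, limma adjusted p = 0.0352), a signal 1.73-fold lower in DDE livers. This call was lost without any of DDE 1, DDE 2, DDE 3, DDE 4, control 1, control 2 or control 3 (adjusted p = 0.0542 to 0.109 in these 7 fits) and kept without control 4 (0.036). The spot of control 2 was stained, and without it the change was -0.75 (adjusted p = 0.05004, which missed the threshold).

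The related carrier Slco1a1 (feature 38261), which transports steroid and bile acid conjugates, did not pass. It had 8.43, 8.24, 7.79 and 7.98 in DDE livers, against 8.64, 8.72, 8.26 and 8.09 in control livers, so the groups overlapped, with all 8 values not far above background. The change was -0.32 (95% interval -0.77 to 0.14, limma adjusted p = 0.541). The 3 members of the Slco1 branch had 1 rise, 1 fall and 1 change whose interval spans zero. Transcripts of the Slco1a genes are closely related in sequence, so a probe for one may bind another, and their single values are uncertain. Slco1a5 and Slco1a6, neighbours of Slco1a4 in that family, had 7.61 ± 0.75 and 7.23 ± 0.044 in DDE livers and 7.17 ± 0.065 and 7.25 ± 0.11 in control livers. Slco1a5 was above background in 1 DDE liver and 0 control livers, and Slco1a6 in 0 livers of either group.

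Slco2a1 (feature 31612), the prostaglandin carrier, also found in endothelium, had 10.14, 9.88, 10.08 and 10.46 in DDE livers, against 10.40, 10.89, 10.45 and 10.48 in control livers. Only DDE 4 reached the control range. The change was -0.41 (SE 0.16, 95% interval -0.79 to -0.045), which missed the threshold in the limma fit over all probes (adjusted p = 0.267). The summed linear signal of 8 endothelial markers ranged from 12432 to 15634 in DDE livers and from 9064 to 17478 in control livers.

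Slco2b1, a carrier of sulfated steroids and many drugs, had 2 probes and passed at neither. Its brighter probe (feature 5801) had 11.22, 10.88, 10.84 and 9.76 in DDE livers, against 10.85, 11.15, 10.74 and 10.50 in control livers, with DDE 4 below all others. The change there was -0.13 (95% interval -0.88 to 0.61, limma adjusted p = 0.846), and without DDE 4 it was 0.17. The dimmer probe (feature 32670) had 10.31, 9.93, 8.96 and 9.63 in DDE livers, against 10.52, 10.67, 9.97 and 9.87 in control livers, a change of -0.55 (95% interval -1.30 to 0.20, adjusted p = 0.515). Here DDE 3, not DDE 4, was the lowest, and without it the change was -0.30.

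**Figure D2:**
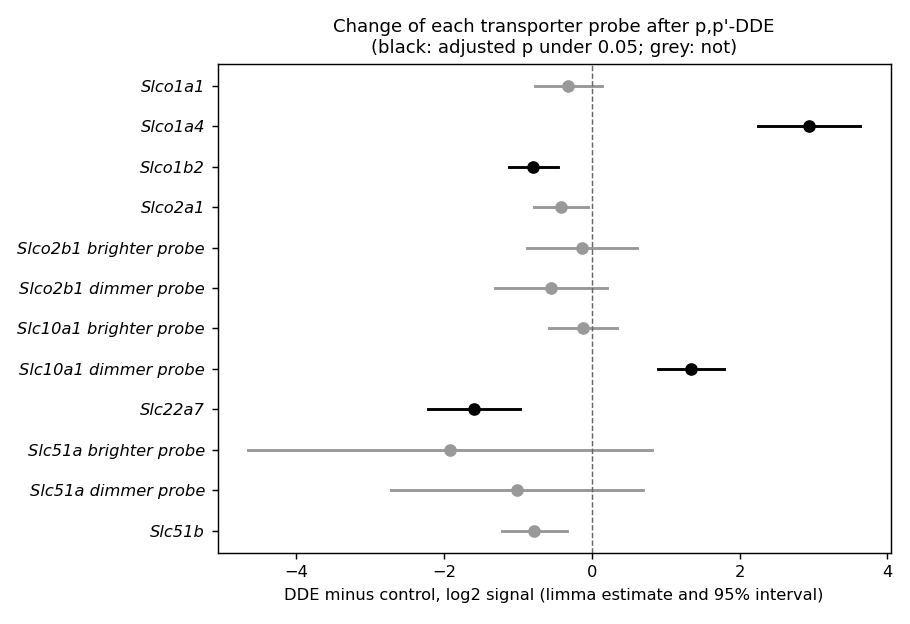
Change of each of the 12 transporter probes (horizontal axis, DDE minus control in log2 signal) as limma estimates with 95% intervals from 4 livers per group. Black marks the 4 probes past the threshold, from Slc22a7 at -1.59 to Slco1a4 at 2.94, and grey the 8 that were not; the brighter Slc51a probe has the widest interval, -4.65 to 0.81.

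Slc10a1, the sodium-coupled bile acid carrier, gave a different result at each of its probes. The dimmer probe (feature 5199) had 12.31, 12.69, 12.52 and 12.03 in DDE livers, against 10.93, 11.41, 10.73 and 11.10 in control livers. All DDE livers lay above all controls, and the probe rose by 1.34 (SE 0.19, 95% interval 0.90 to 1.79, limma adjusted p = 0.0184), or 2.54-fold. The brighter probe (feature 32019) had 15.91, 15.14, 15.89 and 15.50 in DDE livers, against 15.80, 15.92, 15.45 and 15.72 in control livers. Its groups overlapped, with a change of -0.11 (95% interval -0.57 to 0.35, adjusted p = 0.787).

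At the brighter Slc10a1 probe, 2 of 4 DDE values and 2 of 4 control values were within 0.2 of the top of the scale. A change there could not be measured in full, and whether the probes differ in their response was not tested. With the probes of each gene averaged, Slc10a1 changed by 0.62 and did not pass (limma adjusted p = 0.0843). The call of the dimmer probe was also lost without DDE 1, DDE 2 or DDE 3 (adjusted p = 0.0533, 0.0585 and 0.0564).

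Slc22a7 (feature 15680), which carries small organic anions across the sinusoidal membrane, had the largest fall among the probes that passed. It had 14.58, 14.24, 13.57 and 13.39 in DDE livers 1 to 4, against 15.48, 15.66, 15.58 and 15.43 in control livers 1 to 4. The controls agreed within 0.23, while the DDE livers spread over 1.19, with DDE 3 and DDE 4 the lowest. Slc22a7 fell by 1.59 on the log2 scale (SE 0.26, 95% interval -2.21 to -0.97, limma adjusted p = 0.0292), a signal 3.02-fold lower in DDE livers, and its place was 743rd among the falls of all probes. The call was lost without DDE 2, DDE 3 or any 1 control array (adjusted p = 0.0503 to 0.0862 in these 6 fits), while the change stayed between -1.80 and -1.41 over all 8 such fits. The spots of control 3 and control 4 were stained, and without them the change was -1.63 (adjusted p = 0.0823).

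The pair Slc51a and Slc51b, which the nuclear receptor FXR is known to switch on, had low signals. Slc51b (feature 14532) had 8.26, 8.03, 8.10 and 7.95 in DDE livers, against 8.58, 8.92, 9.37 and 8.58 in control livers. All 8 values were above background and the groups did not overlap, but the change of -0.78 (SE 0.19, 95% interval -1.22 to -0.34) missed the threshold (limma adjusted p = 0.0825). It passed in 2 of 19 alternatives, with array weights (0.049), and with quantile normalization of the unstained spots alone (0.0292). Of the 8 fits that left out 1 array, 0 passed (limma adjusted p = 0.0785 to 0.201).

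Slc51a was at background in all 4 DDE livers at both probes, with 7.24, 7.40, 7.24 and 7.20 at the brighter probe (feature 18845) and 7.21, 7.14, 7.20 and 7.12 at the dimmer one (feature 20126). In control livers 1 to 4 the brighter probe had 7.15, 9.90, 12.49 and 7.21, and the dimmer probe 7.29, 10.54, 7.71 and 7.18. Only control 2 was bright at both probes, and both of its spots were stained: 27 of 32 neighbouring spots at the brighter probe, and 16 of 33 at the dimmer one, were over 1 unit above their own medians on that array. The spot with 12.49 in control 3 was outside the stained patches, though 8 of its 32 neighbours were over 1 unit high, and the dimmer probe in that liver was 7.71. Neither probe passed (limma adjusted p = 0.537 and 0.607), with fitted changes of -1.92 and -1.01 against DDE livers at background. The change of the brighter probe rested on control 2 and control 3, and that of the dimmer probe mainly on control 2. Without control 3 the brighter probe changed by -0.82, and without control 2 by -1.68. The dimmer probe changed by -0.23 without control 2. Bile duct cells, which also express Slc51a and Slc51b, had markers with summed linear signals of 1006 to 1101 in DDE livers and 1059 to 14189 in control livers, where the highest sum held a stained Sox9 spot of control 4. The bile duct marker Krt19 had 12.12 in control 1, on an unstained spot, against 7.69 to 8.80 in the other control livers. Intestine, where Slc51a and Slc51b are also active, had marker sums of 5984 to 13358 in DDE livers and 14710 to 41500 in control livers. Of its 5 markers only Fabp2 was above background in all 8 livers, so these sums rest mainly on that gene. The change of Fabp2 did not pass (limma adjusted p = 0.305). The highest of these sums came with the Fabp2 value of 15.32 in control 2, on a stained spot. Of the other intestine markers, Alpi, Cdx1 and Cdx2 were at background in every liver, and Vil1 was above it in 1 control liver only. The part of either tissue in the Slc51a and Slc51b values was not tested.

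The genes with profiles most like those of the changed members were found by the root mean square difference, over the 8 livers, between deviations from each gene's own control mean. For Slco1a4 they were Rarres1 (difference 0.217), the ion channel gene Trpv4 (0.407) and the aldo-keto reductase gene Akr1c19 (0.435), among 19099 genes compared. Rarres1 had 11.15 ± 0.56 in DDE livers and 8.15 ± 0.22 in control livers. For Slco1b2 the nearest were Secisbp2l (0.077), Slc51b (0.0963) and Aagab (0.104), so that another member of the transporter set came second. Secisbp2l had 7.56 ± 0.12 in DDE livers, near the background level, so its likeness is approximate. Slc51b and Aagab did not themselves pass (limma adjusted p = 0.0825 and 0.0546). For Slc22a7 they were Cyp7b1, an oxysterol hydroxylase of the alternative bile acid pathway (0.206), Apob, the structural protein of lipoproteins secreted by liver (0.225), and the fatty acid binding protein gene Fabp5 (0.259). Cyp7b1 had 14.49 ± 0.61 in DDE livers and 15.87 ± 0.18 in control livers and did not itself pass (limma adjusted p = 0.0578). With 3 of its 4 control values within 0.2 of the top of the scale, its likeness to Slc22a7 is approximate.

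Genes around these transporters were read at the probe with the highest mean for each gene, at which 2.58% of all 22471 genes rose and 0.774% fell. Of 25 other carriers of the Slco, Slc10 and Slc22 families, 0 passed in limma (at an unadjusted p under 0.05, 2 were higher and 1 lower), with a median change of 0.03 against 0.01 for all genes. Of these, only 3 were above background in every liver, and 8 were at background in every liver. For most of this list a change could therefore not be measured in full. Slc22a5, the carnitine carrier, had 8.87 ± 0.65 in DDE livers and 7.88 ± 0.34 in control livers (limma adjusted p = 0.206), and Slc22a18 14.41 ± 0.36 and 13.90 ± 0.23 (adjusted p = 0.287). The smallest p of the list belonged to Slc22a5, whose highest value, 9.84 in DDE 3, was on a stained spot.

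Of 13 genes listed as export pumps, only some of which carry conjugates or bile salts, 3 rose, 0 fell and 10 did not pass, with a median change of 0.21. Abcc3 (MRP3), which exports conjugates back to blood, had 13.05 ± 0.17 in DDE livers and 11.27 ± 0.30 in control livers, 3.42-fold higher (limma adjusted p = 0.00676). Abcb1b, a drug export pump, was at least 1.48-fold higher and Slc47a1 (MATE1), an exporter of organic cations, at least 1.35-fold higher, with 1 and 0 of the 4 control livers above background. The bile salt export pump Abcb11 had 12.94 ± 0.50 in DDE livers and 13.01 ± 0.45 in control livers (adjusted p = 0.92).

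In bile acid synthesis and conjugation, 0 of 15 genes passed in limma, and at an unadjusted p under 0.05 there were 2 higher and 4 lower, with a median change of -0.07. The smallest p was that of Cyp7b1. Among 18 receptors and regulators 2 rose and 1 fell, with a median change of 0.20. Nr1h4, the bile acid receptor FXR, had 13.16 ± 0.14 in DDE livers and 12.44 ± 0.22 in control livers (limma adjusted p = 0.0344). Its lowest control value, 12.12 in control 4, was on a stained spot. Nr1i2, the drug-sensing receptor PXR, was at least 1.43-fold higher, with 1 of 4 control livers above background (adjusted p = 0.0153). Ghr, the growth hormone receptor, had 13.69 ± 0.093 in DDE livers and 14.50 ± 0.12 in control livers (adjusted p = 0.00845), while its other probe changed by -0.12.

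**Figure D3:**
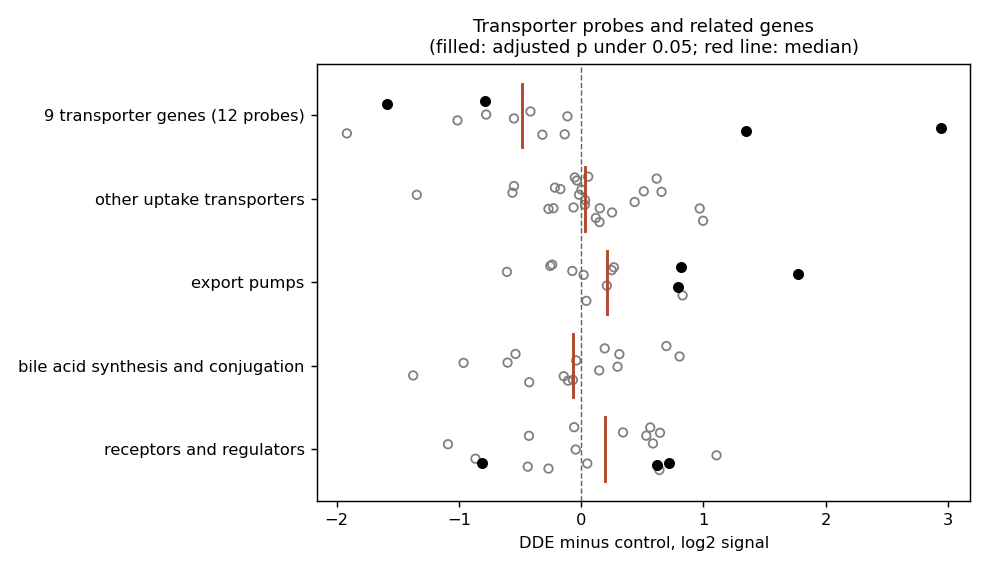
Change of each gene (horizontal axis, DDE minus control in log2 signal) for the 12 transporter probes and 4 lists of related genes, 1 point per probe or gene with random vertical scatter. Filled points passed the threshold and red lines are medians, -0.48 for the transporter probes and between -0.07 and 0.21 for the lists.

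**Figure D4:**
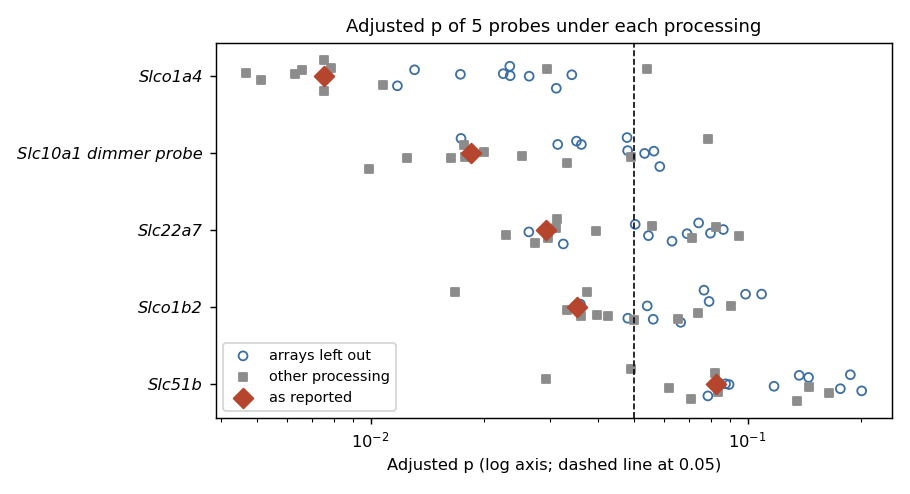
Adjusted p (horizontal log axis) of 5 transporter probes as reported (red diamonds), in fits without 1 or 2 arrays (open circles) and under other processing (grey squares), with a dashed line at the threshold of 0.05. Points of Slco1a4 lie left of the line in 18 of 19 alternatives, those of Slc22a7 and Slco1b2 in 8 of 19 each.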

How the data were processed

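Liver RNA of 8 mice was measured on 1-colour arrays, with Cy3-labelled RNA per the labels' protocols. The authors deposited 1 table of normalized log2 values, 42957 probes by 8 arrays. The scanner, background correction, normalization and filters were not given in the sources used here. Arrays have near-equal distributions, so a change is relative to the other probes, and the number of arrays limits the precision. A supplied annotation table gave 33009 probes 1 symbol, 0 several and 9948 none. It names probes by house mouse transcripts, so they may bind Mus spretus RNA less well. Probe sequences and genome positions are not used here.

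The test was limma 3.58.1 (lmFit, eBayes) in R 4.3.3 on the values as deposited, DDE minus control, with no covariate and p-values adjusted over all probes. The code was tested on simulated data. Spot positions were read from feature numbers (85 spots per row). Stained spots were those with a median deviation from probe medians beyond 0.3 over the surrounding 7 rows and 5 columns. A fold is a lower bound where a value of the dimmer group was at or below background, with such values raised to it. Same-numbered arrays of the groups did not all deviate together (correlations 0.348, 0.242, 0.209 and -0.119), so the numbers were not taken to pair mice. What the numbers mark was not given in the labels, and the stained share rose with them in both groups. With the number as a block, 0 member probes passed. The members, lists, rules and tests were chosen with earlier results of these data known. Named genes were all members, up to 5 rises and 5 falls past the threshold per list, the gene of smallest p where a list had none, and the 3 most similar genes per member whose highest-mean probe passed. Slco1a5, Slco1a6, Slc22a18, Abcb11, Fabp2 and Reln were named after their values were seen. Of 20 alternatives, 3 were added after seeing the data (unstained spots renormalized, values raised to background, and control 4 and DDE 4 left out together).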

Additional observations from a re-analysis of the deposited data

Results flagged for a closer look

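In each group of 4 livers, a value was picked out where its gap to the nearest other value took up more of the group's range than Dixon's 95% critical value for 4 values, which chance does in about 1 of 20 groups. Of 24 groups tested (12 probes in DDE and in control livers), 2 had such a value, both in control 2. Slco2a1 had 10.89 in control 2, against 10.40 to 10.48 in the other controls. The dimmer Slc51a probe had 10.54 in control 2, on a stained spot, against 7.18 to 7.71 in the other controls.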

How the results depend on the processing

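Of 228 combinations of a member probe and an alternative, 195 kept the direction and the side of the threshold, 27 lost the call, 2 gained it (both Slc51b) and 4 reversed, none of them at a probe that had passed. Over the fits that left out 1 array, the brighter Slco2b1 probe changed by -0.32 to 0.17 and the brighter Slc10a1 probe by -0.21 to 0.044. The reversals were at the brighter Slco2b1 probe with array weights (0.036), without DDE 4 (0.17) and without control 4 and DDE 4 (0.067), and at the brighter Slc10a1 probe without DDE 2 (0.044). With 2 member probes higher and 2 lower as reported, averaging probes left 1 higher, and lower calls numbered 1 with an intensity trend and robust variance, 0 with ordinary t statistics, 0 without stained spots and 1 without control 4 and DDE 4. Fits with fewer arrays have fewer residual degrees of freedom. Calls over all probes numbered 332 without DDE 2, 1596 without DDE 4 and 1708 without control 4 and DDE 4, against 1289 as reported. Why calls were lost was not tested. Leaving out 1 array gave 1 to 2 higher and 0 to 1 lower member probes, and 2 to 6 higher and 1 to 2 lower genes of the 4 related lists. Those lists had 5 higher and 1 lower among 71 genes as reported, against 1 higher with a trend and robust variance and 2 higher with ordinary t statistics. Lower list genes numbered 0 with averaged probes, 2 without dim probes, 2 without stained spots, 3 when the rest was also renormalized and 2 without control 4 and DDE 4. With the replicate number as a block (replicate block), 0 member probes and 0 list genes passed in either direction, and 9 of all probes did, against 1289. Slco1a4 kept its change of 2.94 under the block and missed the threshold (limma adjusted p = 0.0541). Same-numbered arrays had correlations of deviations of 0.348, 0.242, 0.209 and -0.119 over 9423 probes, and not every array correlated best with its own number. The causes were not tested. Calls over all probes ranged from 332 without DDE 2 to 2595 with stained spots left out and the rest renormalized, apart from the block.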
